A study of Homo sapiens with 4 samples.

Results

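The translation initiation factor genes are the genes that encode the eIF1 to eIF6 proteins and their subunits. They were taken from the count table by name, as the rows named EIF followed by a digit from 1 to 6, leaving out the EIF2AK kinase genes, names that end in P and digits (pseudogenes and the EIF4EBP genes) and rows on the Y chromosome. Of 133 matching names, 48 were kept, out of 60606 genes in all. RNA of LNCaP-DaroR cells was measured by polyA RNA sequencing in 2 siControl and 2 siLOC730101 libraries. LNCaP-DaroR is a darolutamide-resistant derivative of LNCaP, a prostate cancer cell line, raised in increasing darolutamide and then kept at 10 μM for 12 months. The siControl libraries received 20 nM non-targeting siRNA, and the siLOC730101 libraries received a siRNA pool against the long non-coding RNA LOC730101, so that the resistant background and the transfection were common to both groups. The cells were 1 derived line, and the labels do not say whether the 2 replicates of a group were separate cultures, so p-values measure only the spread between these libraries. In bulk RNA, a change in the number of cells of a kind and a change in RNA per cell cannot be told apart.

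LOC730101 (ENSG00000216775 in the table) was represented by 2560 and 2370 counts with control siRNA and by 633 and 680 with siLOC730101, a log2 fold change of -1.56 (SE 0.116), the direction its labels give. Library totals ran from 39213498 to 53368158 counts. The prostate luminal markers KLK3, KLK2, TMPRSS2, KRT8, KRT18, FOLH1 and HOXB13 were detected in every library. Even counts made up 66.0% to 70.1% of the counts from 1 to 20 in a library, as where both mates of a pair are counted, in which case fewer fragments than counts were sequenced. The header of the count table gave the alignment files of the 2 groups different name endings, and any difference in how the 2 groups were aligned cannot be told apart from the siRNA.

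Translation initiation brings the small ribosomal subunit, the initiator tRNA and the mRNA together at the start codon. eIF2 carries the initiator tRNA as a GTP complex and is recharged by the exchange factor eIF2B, eIF3 holds the small subunit, and the cap-binding eIF4E, the scaffold eIF4G and the helicase eIF4A recruit and unwind the mRNA. eIF1, eIF1A and eIF5 govern start-codon choice, and eIF5B joins the large subunit. Many mRNAs of the translation machinery start with a cytosine and a run of pyrimidines, the TOP motif, through which mTOR signalling controls their translation.

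The first bases of the transcripts are shown because a TOP motif, where present, lies there. RefSeq transcription starts (GRCh38.p14) were matched by symbol for 41 of the 48 genes, in 57 entries. EIF2S2, EIF3A, EIF3CL, EIF3E, EIF3G, EIF3H and EIF3L had no matched start and were not examined for the tract. A TOP-like start was defined as a C at the first transcribed base followed by at least 4 C or T, read on the strand of the gene. It occurred in 10 genes and in 17.5% of the 57 entries, against 4.07% of all 35116 RefSeq promoters, which include those of genes not tested here. Among tested genes with a matched start, 858 had a TOP-like start and 11378 did not. Among the tested initiation factor genes, 10 had one and 30 did not. Each line gives 10 bases before the start and 15 from it, with the pyrimidine tract in capitals.
EIF2A (chr3:150546777-150546801, plus strand): cgagcggtttCTCTTTCCgggacaa
EIF2D (chr1:206612451-206612475, minus strand): ccagccgggcCCTTTTCgcggccgg
EIF2S3 (chrX:24054946-24054970, plus strand): gatttccttcCTCTTTTggcaacat
EIF2S3B (chr12:10505880-10505904, plus strand): gactttcttcCTCTTTTggcaacat
EIF3D (chr22:36529152-36529176, minus strand): cgcatgtttcCTCTTTTCCTggttt
EIF3F (chr11:7987327-7987351, plus strand): cttccgcctcCTTCTTTCTCgacaa
EIF3K (chr19:38619178-38619202, plus strand): tttccaccacCTCTTCCTgttcccg
EIF3M (chr11:32583821-32583845, plus strand): gcccagttccCTTTTCCggtcggcg
EIF4A2 (chr3:186783567-186783591, plus strand): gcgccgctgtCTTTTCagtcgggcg
EIF4B (chr12:53006446-53006470, plus strand): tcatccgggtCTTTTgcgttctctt
Among the genes shown, the tract was longest in EIF3D and EIF3F, subunits of eIF3, with 10 bases each, and shortest in EIF4B, with 5. EIF2S3 and its near-identical copy EIF2S3B held the same 7-base tract. A match to these letters is a description of the reference, and translation was not measured.

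No initiation factor gene passed the test of a difference after the knockdown at an adjusted p under 0.05 (edgeR quasi-likelihood test with Benjamini-Hochberg adjustment over all genes tested). EIF4E1B, an oocyte-type eIF4E, had 0 counts in every library, and the other 47 passed the filter on low counts. Of all 19349 genes tested, 55 (0.284%) were called, and 14 (0.0724%) were called lower. At an unadjusted p under 0.05 there were 5 initiation factor genes, 3 higher and 2 lower, against 10.8% of all genes tested. The other tool run, DESeq2, called 0 of the 43 to which it gave an adjusted p, with 5 genes at an unadjusted p under 0.05, and gave none to EIF3CL, EIF4A1, EIF2S3B and EIF5AL1. The median log2 fold change over the 47 genes was 0.074, against -0.0021 over all genes tested, with 29 genes above 0 and 18 below. It fell to 0.0048 without the second siLOC730101 library.

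Most of these genes differed little between the groups. The log2 fold change was within 0.2 either way for 42 of the 47 genes, and the 95% interval lay within 0.5 either way for 41. At their median SE of 0.0801, a gene needed a log2 fold change of about 0.41 (1.33-fold) to be called. The siLOC730101 libraries lay above both siControl libraries for 19 genes, against 21.3% of all genes tested, and below both for 9, against 20.5%. Among genes with a mean CPM of 50 or more, a cut-off chosen after seeing the data, the median was 0.079 for 34 initiation factor genes and 0.029 for all 4805. At that cut-off, the siLOC730101 libraries lay above both siControl libraries for 17 of the 34 and 1513 of the 4805. They lay below both for 5 and 904. Summed over the 48 genes, the level was 10608 and 10933 CPM in the siControl libraries and 10625 and 11087 CPM in the siLOC730101 libraries, and the groups overlapped.

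**Figure D1:**
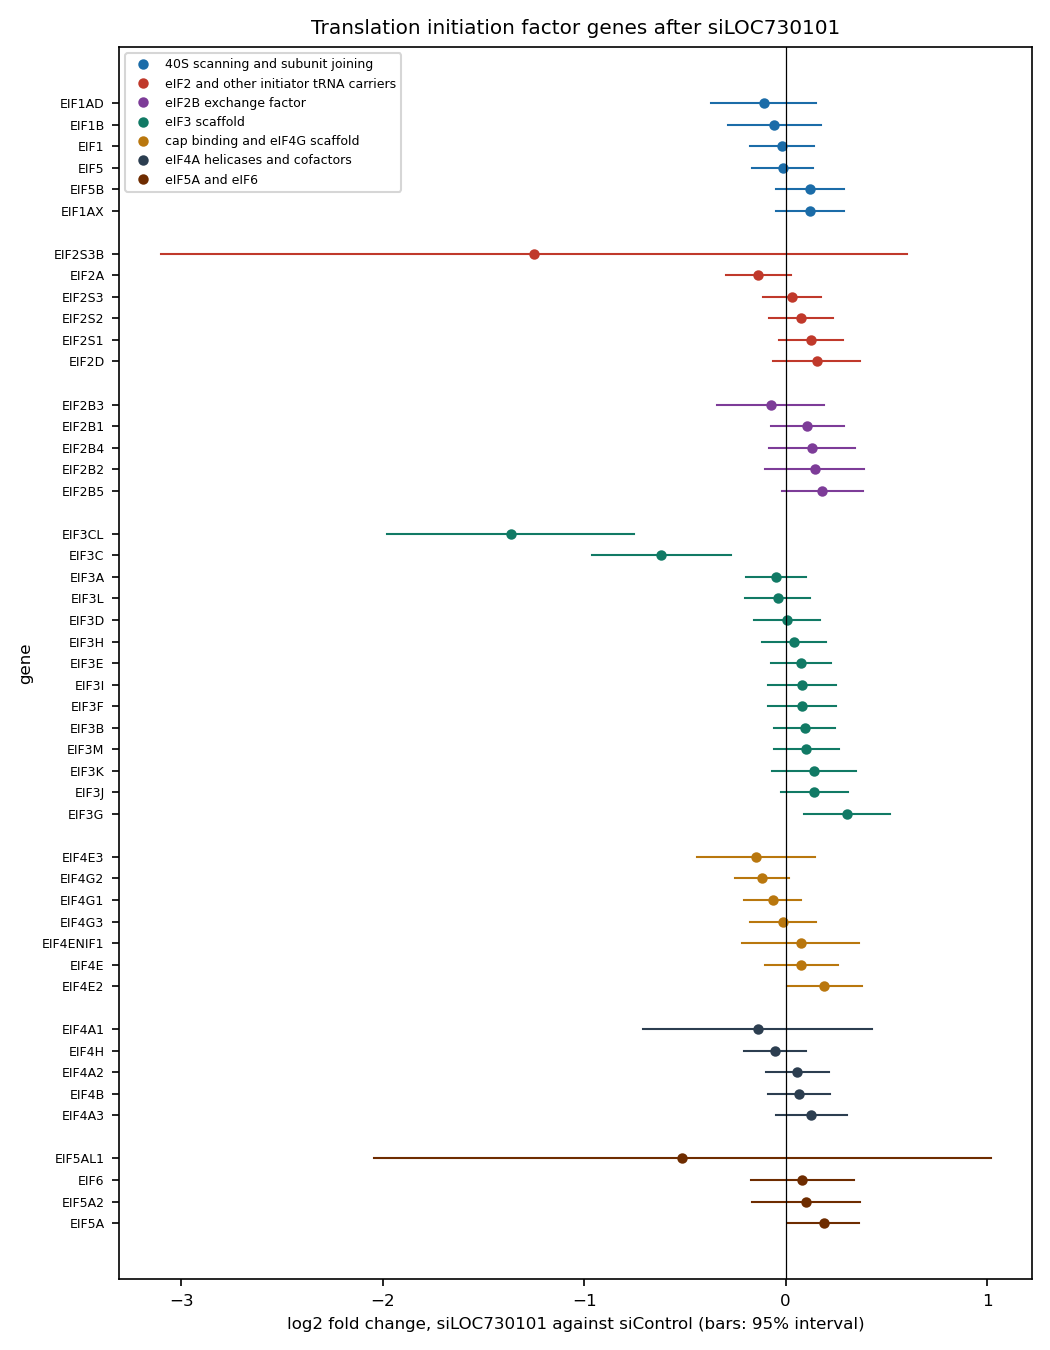
Log2 fold change of siLOC730101 against siControl (horizontal axis) for the 47 genes tested, grouped by role, with points for the fitted value and bars for its 95% interval. The intervals of 42 genes hold 0, EIF3CL and EIF3C lie to the left of 0, and EIF2S3B and EIF5AL1, with few counts, have the widest bars.

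The factors of scanning and subunit joining had a median log2 fold change of -0.017 over 6 genes. EIF1, which keeps the scanning ribosome open until a start codon is met, stood at 739 and 806 CPM in the siControl libraries and 725 and 801 CPM in the siLOC730101 libraries. The groups overlapped, and the log2 fold change was -0.017 (SE 0.0749). EIF1AX, the X-linked eIF1A gene and the one of this group with the largest difference, had 121 and 128 CPM against 131 and 140 CPM. Its siLOC730101 libraries were above its siControl libraries, with a log2 fold change of 0.12 (SE 0.0801, adjusted p = 0.638). EIF5B, the GTPase that joins the large subunit, had a log2 fold change of 0.12, and EIF5, the GTPase-activating protein of eIF2, had one of -0.016. EIF1B, a close relative of EIF1, and EIF1AD, which was counted in this group, had log2 fold changes of -0.056 and -0.11.

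The genes of the 3 eIF2 subunits had log2 fold changes between 0.029 and 0.13, and none passed the test. EIF2S1, the alpha subunit that stress kinases phosphorylate, had 163 CPM in each siControl library and 183 and 173 CPM in the siLOC730101 libraries, with a log2 fold change of 0.13 (SE 0.0750, adjusted p = 0.586). The beta subunit gene EIF2S2 had a log2 fold change of 0.076. EIF2S3, the gene of the GTP-binding gamma subunit, had 569 and 571 CPM against 582 and 581 CPM, a log2 fold change of 0.029 (SE 0.0677). EIF2S3B, the copy, had 22, 32, 10 and 8 counts in siControl 1 and 2 and siLOC730101 1 and 2. It was lower in both siLOC730101 libraries, but with a log2 fold change of -1.25 (SE 0.870, adjusted p = 0.663) its interval ran from -3.10 to 0.60. EIF2A and EIF2D, which can deliver initiator tRNA without eIF2, had log2 fold changes of -0.14 and 0.15.

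None of the 5 eIF2B subunit genes passed the test, and 4 of them had both siLOC730101 libraries above both siControl libraries, against 21.3% of all genes tested. The median log2 fold change was 0.13, and 0.072 without siControl 2. The largest was that of EIF2B5, the catalytic epsilon subunit, with 52.3 and 50.01 CPM against 60.8 and 55.2 CPM and a log2 fold change of 0.18 (SE 0.0945, adjusted p = 0.525). EIF2B1, EIF2B2 and EIF2B4, the regulatory subunits, had log2 fold changes of 0.11, 0.15 and 0.13. EIF2B3, the gamma subunit that works with EIF2B5, was the exception with -0.074 and overlapping groups.

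Most genes of the eIF3 scaffold had small positive differences, and the 2 copies of its c subunit, EIF3C and EIF3CL, had the lowest fold changes of the 14. For EIF3CL, 285 and 206 counts were obtained with control siRNA and 72 and 76 with siLOC730101. Both siLOC730101 values were well below both siControl values, at a log2 fold change of -1.37 (SE 0.287, 95% interval -1.98 to -0.75, adjusted p = 0.0641). EIF3C had 768 and 673 counts against 354 and 381. Its groups did not overlap either, with a log2 fold change of -0.62 (SE 0.162, 95% interval -0.96 to -0.27, adjusted p = 0.131). With the replicate number as a block (adjusted p = 0.0150) and with no filter beyond 1 count (adjusted p = 0.0359) it passed the test. Summed, the copies had 1053, 879, 426 and 457 counts, a log2 fold change of -0.77 (SE 0.147), and the sum passed the test with an adjusted p of 0.0354. EIF3CL passed the test in 8 of the 14 alternative settings, and without any 1 library except siControl 1.

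These copies cannot be told apart by most reads. The coding sequences of their representative transcripts (GENCODE lift to GRCh37) were 2739 and 2742 bases long and identical except for 3 extra bases in EIF3CL, in a run of GAG repeats after coding base 870. That stretch is shown because it is the one coding difference between them, with the extra bases, placed at the first possible position, in capitals.
EIF3C: aagcgcctggatgaggaggaggag
EIF3CL: aagcgcctggatGAGgaggaggaggag
Of the 100-base stretches of the EIF3C transcript, 97.0% occurred in another gene, and of those of EIF3CL, 96.9%. The levels per kilobase of representative transcript were 4.06 CPM for EIF3C and 1.15 CPM for EIF3CL, while those of the other 12 eIF3 genes ran from 38.4 CPM (EIF3F) to 268 CPM (EIF3I). The lower sum of the pair in siLOC730101 cannot be told apart from a difference in how such reads were placed in the 2 groups.

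**Figure D2:**
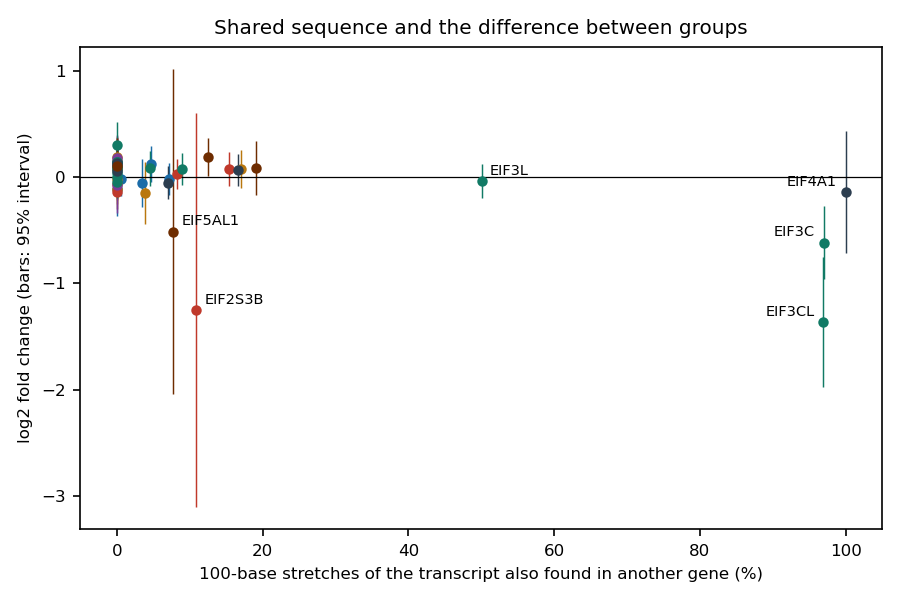
Log2 fold change of siLOC730101 against siControl (vertical axis, bars are 95% intervals) by the share of 100-base stretches of the representative transcript that occur in another gene (horizontal axis, in percent), 1 point for each of the 47 genes. EIF3C, EIF3CL and EIF4A1 stand at the right near 100%, EIF3L is near 50%, and the other genes lie below 20%. For EIF4A1 and EIF3L, the gene that shares most stretches overlaps them at the same place on the same strand. For EIF3C and EIF3CL it is the other copy.

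Among the other eIF3 genes, EIF3G, an RNA-binding subunit, had the largest difference. It had 90.2 and 90.9 CPM in the siControl libraries and 99.0 and 125 CPM in the siLOC730101 libraries. Both siLOC730101 values were higher and the second stood apart, with a log2 fold change of 0.30 (SE 0.0998, adjusted p = 0.235). Without the first siLOC730101 library it was 0.47 and passed the test, and without the second it was 0.13. EIF3J and EIF3K, peripheral subunits, both had log2 fold changes of 0.14. Leaving out 1 library moved that of EIF3J between 0.14 and 0.15 and that of EIF3K from 0.0048 (without siLOC730101 2) and 0.027 (without siControl 1) to 0.27 (without siControl 2 or siLOC730101 1), where EIF3K passed the test only without siLOC730101 1. For the core genes EIF3A and EIF3B the log2 fold change was -0.047 and 0.094. Of the 100-base stretches of the EIF3L transcript, 50.04% occurred in another gene, ENSG00000279738, whose exons overlap those of EIF3L on the same strand. The log2 fold change of EIF3L was -0.040. The remaining genes, EIF3D, EIF3E, EIF3F, EIF3H, EIF3I and EIF3M, lay between 0.0049 and 0.10. The median of the 14 genes was 0.078, and -0.0073 without the second siLOC730101 library.

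The cap-binding and scaffold genes had a median log2 fold change of -0.015 over 7 genes tested. EIF4G2, an eIF4G relative that does not bind eIF4E, had 1658 and 1670 CPM in the siControl libraries and 1524 and 1548 CPM in the siLOC730101 libraries. Both siLOC730101 values were the lower ones, with a log2 fold change of -0.12 (SE 0.0631, adjusted p = 0.545). EIF4G1, the main scaffold, had a log2 fold change of -0.064, and EIF4G3, its close relative, of -0.015, with groups that did not overlap in either. EIF4E2, a cap-binding protein linked to translational repression, had 62.9 and 61.1 CPM against 69.3 and 72.3 CPM. The groups did not overlap, and the log2 fold change was 0.19 (SE 0.0870, unadjusted p = 0.0440, adjusted p = 0.448). EIF4E itself, the cap-binding factor, had a log2 fold change of 0.076, EIF4ENIF1, its nuclear import factor, of 0.074, and EIF4E3 of -0.15.

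The helicase EIF4A1 had the fewest counts of its group. Its counts were 209, 206, 177 and 121 (siControl 1, siControl 2, siLOC730101 1, siLOC730101 2), or 3.87, 4.40, 4.31 and 3.19 CPM, and the groups overlapped (log2 fold change -0.14, SE 0.268). In the annotation of the count table, 47.4% of its exon bases lie in exons of other genes, and in the GENCODE lift to GRCh37 all of its representative transcript (100%) does. The counting command had no option for reads that fall in more than 1 gene, and the part of this overlap in its level was not tested. EIF4A2, the paralog with which it shares its function in initiation, had 250 and 248 CPM against 268 and 251 CPM, a log2 fold change of 0.058. EIF4A3, the helicase of the exon junction complex, had one of 0.13, and EIF4B and EIF4H, the RNA-binding cofactors of eIF4A, of 0.068 and -0.054.

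EIF5A encodes the hypusine-containing factor now known mainly for elongation and termination. It had 162 and 181 CPM in the siControl libraries and 185 and 206 CPM in the siLOC730101 libraries, and the groups did not overlap. The log2 fold change was 0.19 (SE 0.0835, unadjusted p = 0.0396, adjusted p = 0.432). It was 0.11 without siControl 1 or siLOC730101 2 and 0.27 without siControl 2 or siLOC730101 1, and only the last of these passed the test (adjusted p = 0.0152). EIF5AL1, an intronless copy whose coding sequence of 462 bases differs from that of EIF5A at 5 positions, had 34, 32, 14 and 22 counts. Its log2 fold change was -0.51 (SE 0.718), and summing it with EIF5A left the fold change at 0.19. EIF5A2, the paralog, had a log2 fold change of 0.10. EIF6, which keeps the ribosomal subunits apart, had 62.5 and 68.1 CPM against 58.8 and 79.6 CPM, so that its 2 siLOC730101 libraries lay on either side of the siControl pair.

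**Figure D3:**
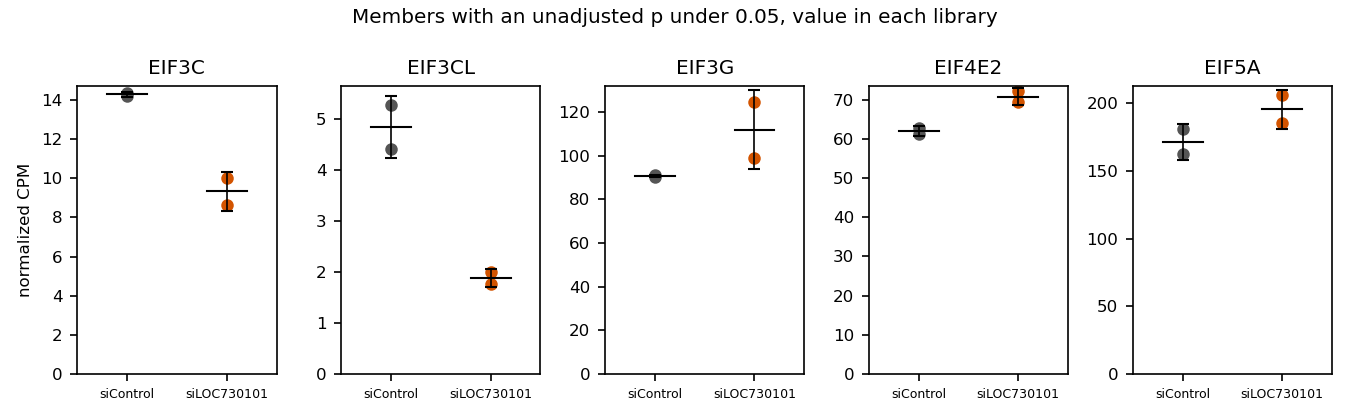
Normalized CPM (vertical axes, from 0) of the 5 genes with an unadjusted p under 0.05 in each siControl (grey) and siLOC730101 (orange) library, with points for libraries, long bars for the group mean and error bars for 1 SD (n = 2 libraries). The groups do not overlap in any panel, and the siLOC730101 libraries of EIF3G lie at 99.0 and 125 CPM.

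The levels of the 47 genes spanned a wide range in both groups. Per kilobase of the representative transcript, EIF4G2 was highest at 422 CPM (439 ± 2.24 in siControl and 405 ± 4.33 in siLOC730101, SD, n = 2), followed by EIF1 at 328 CPM (330 ± 20.3 and 326 ± 22.9). These 2 did not overlap. EIF3I followed at 268 CPM, then EIF3K at 208, EIF4H at 203, EIF3B at 185 and EIF3E at 184 CPM, and the last 4 overlapped across libraries. Lowest were EIF2S3B and EIF5AL1, at 0.15 and 0.14 CPM, which overlapped. Per kilobase of all exons of a gene in the table, EIF1 was highest at 212 CPM, before EIF4G2 at 189 and EIF2S3 at 141 CPM, and EIF2S3B, EIF5AL1 and EIF4A1 were lowest at 0.11, 0.14 and 0.76 CPM. The exons of EIF3E in the table add up to 18.7 times its representative transcript, and the order of levels depends on which length is used. The rank moved by at least 10 places for 4 genes. All of the representative transcript of EIF4A1 (100%) lies in exons of other genes, and most of EIF3C and EIF3CL is shared between them. The part of this in their levels was not tested.

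**Figure D4:**
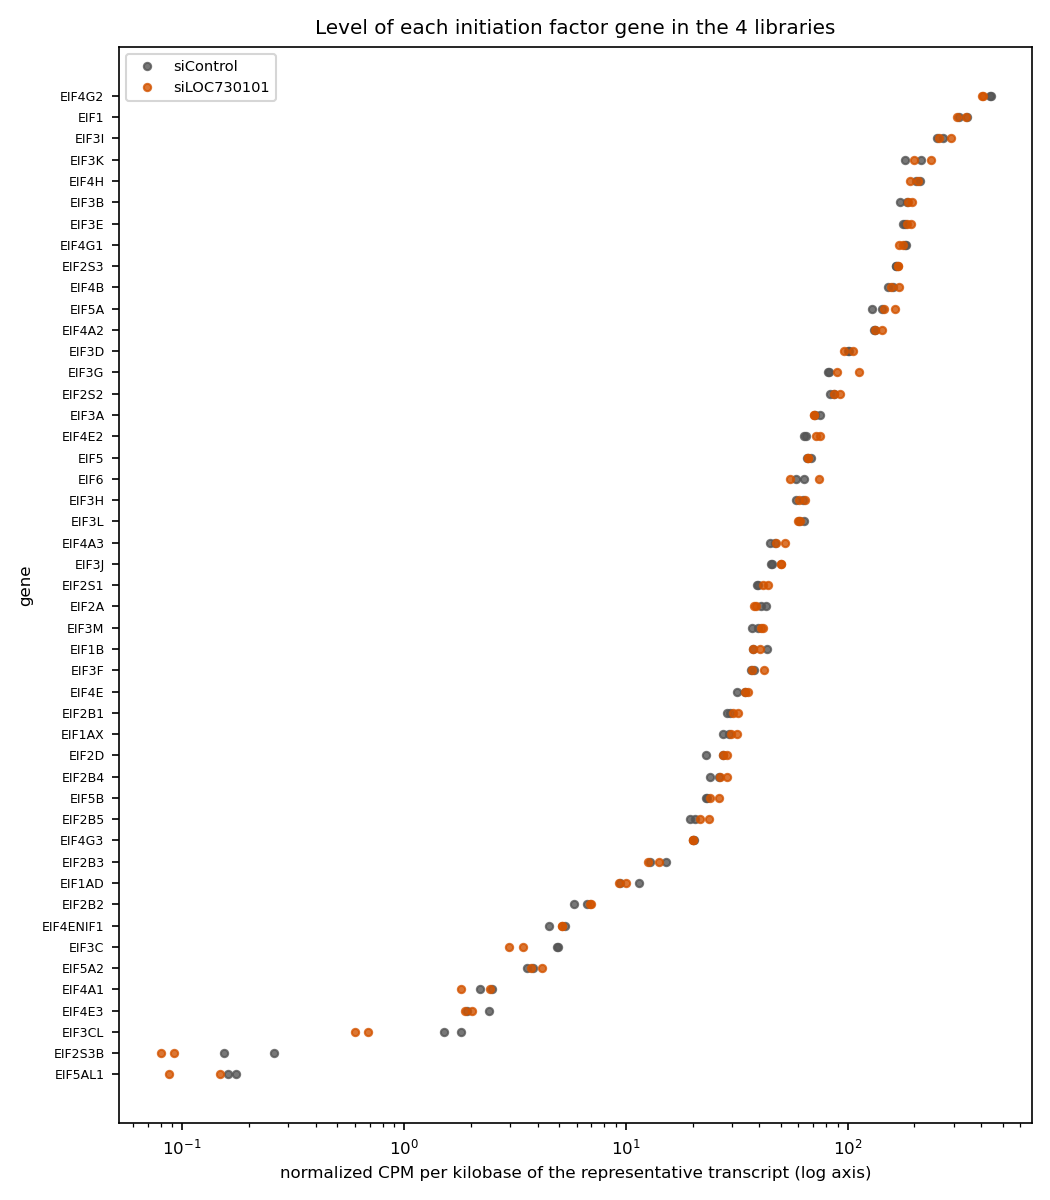
Normalized CPM per kilobase of the representative transcript (horizontal log axis) for each of the 47 genes in the 2 siControl (grey) and 2 siLOC730101 (orange) libraries, ordered by the mean of the 4. Points of the 2 groups lie close together for most genes, from 422 CPM for EIF4G2 to 0.14 CPM for EIF5AL1. They are apart for EIF3C and EIF3CL, and for EIF2S3B, which has few counts.

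The 10 genes with a TOP-like start had a median log2 fold change of 0.063, and the 30 tested genes with a RefSeq start and no such tract had one of 0.079. Over the tested genes for which a RefSeq start was matched by symbol, the medians were 0.033 for 858 genes with a TOP-like start and 0.012 for 11378 without.

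Transcript length moved with the differences between libraries. Over 13533 protein-coding genes, the log2 fold change had a Spearman rho of -0.29 with transcript length, and the difference between siLOC730101 2 and siLOC730101 1 one of -0.34, across genes that share the same libraries. For the 47 initiation factor genes these were -0.27 and -0.26, and -0.060 between the siControl libraries. Initiation factor genes under 2000 bases (12 genes) had a median of 0.14 between the siLOC730101 libraries, and those of 4000 bases or more (12 genes) one of 0.018. The log2 fold change of the initiation factor genes between the groups had medians of 0.082 under 2000 bases, 0.041 between and 0.092 from 4000 bases. Over the 13533 protein-coding genes these medians were 0.12, 0.022 and -0.034, falling with length. Short genes varied among themselves. EIF6 and EIF3G, with transcripts of 1069 and 1103 bases, stood 0.43 and 0.33 higher in siLOC730101 2 than in siLOC730101 1. EIF4E2 and EIF1B, with 967 and 987 bases, stood 0.060 and 0.099 higher. EIF4A1, with 1758 bases and few counts (177 in siLOC730101 1 and 121 in siLOC730101 2), had a difference of -0.38. The part of length in the differences between the groups was not tested.

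**Figure D5:**
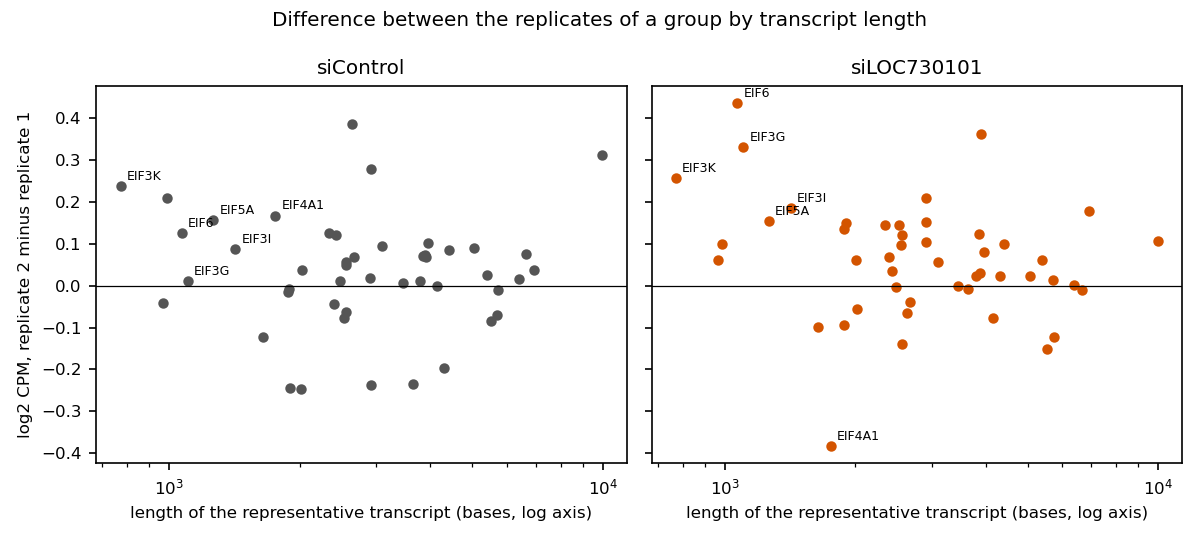
Difference in log2(CPM + 0.5) between replicate 2 and replicate 1 of each group (vertical axis) by the length of the representative transcript in bases (horizontal log axis), 1 point for each of the 47 genes. In siLOC730101, EIF6 stands highest at 0.43 and EIF4A1 lowest at -0.38, both with transcripts under 2000 bases. EIF4A1 had few counts (177 and 121).

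Genes that act on initiation factors or beside them were examined from a list. Of 39 listed genes (eIF4E-binding proteins, eIF2 alpha kinases and phosphatase subunits, poly(A)-binding proteins, mTOR and MNK signalling, recycling and reinitiation factors, hypusination and eIF2 assembly, mitochondrial initiation), 37 were tested and none was called, against 0.284% of all genes tested. At an unadjusted p under 0.05 there were 6, all higher. Over all 19349 genes tested, 1244 were higher and 850 lower at that threshold, or 10.8% in either direction. MKNK2, a kinase of eIF4E, had 458 and 440 CPM against 538 and 590 CPM, a log2 fold change of 0.33 (adjusted p = 0.0776). The groups did not overlap, and DESeq2 called it. RPS6, the ribosomal protein that S6 kinases phosphorylate, had 1154 and 1255 CPM against 1363 and 1680 CPM, a log2 fold change of 0.34 (adjusted p = 0.125), and DESeq2 called it too. CDC123, which assembles eIF2, RPS6KB2, an S6 kinase, and PAIP2, an inhibitor of the poly(A)-binding protein, had log2 fold changes of 0.24, 0.23 and 0.22, all with groups that did not overlap. EIF4EBP1, the mTOR-regulated inhibitor of eIF4E, had 146 and 144 CPM against 143 and 207 CPM, so that its log2 fold change of 0.27 rested on siLOC730101 2. The 4 eIF2 alpha kinases, EIF2AK1, EIF2AK2, EIF2AK3 and EIF2AK4, had log2 fold changes of 0.064, -0.10, -0.16 and -0.061.

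Pseudogenes of these genes gave few counts. Of 76 pseudogene names in the EIF1 to EIF6 series, 14 passed the filter, and 11 of these were below 0, with a median log2 fold change of -0.49 and none called. Over all 1155 pseudogenes tested the median was -0.21 and 64.8% were below 0. In the range of levels that holds the middle 80% of them, 923 pseudogenes had a median of -0.24 with 65.1% below 0, and 3583 protein-coding genes had a median of -0.062 with 55.8% below 0. The near-identical copies among the 48 genes, EIF3CL, EIF2S3B and EIF5AL1, had log2 fold changes below 0 as well, and the part of read placement in these values was not tested.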

How the data were processed

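RNA of 2 siControl and 2 siLOC730101 libraries was measured. The deposited values are raw counts of reads per gene, which the authors obtained with featureCounts 2.0.1 after trimming and alignment. The header of the table names hg38 and gencode version 41, the methods of the study an older build with STAR, and the submitters' processing notes BWA, so the aligner is uncertain. The counting command had no paired-end, strand or overlap option. Totals were 39213498 to 53368158 counts.

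Counts were filtered (filterByExpr), scaled by TMM and fitted over all genes with edgeR 4.0.16 in R 4.3.3 (legacy quasi-likelihood test, group as the only term), with Benjamini-Hochberg adjustment over 19349 genes and a threshold of 0.05. CPM used TMM-scaled totals. DESeq2 1.42.0, other scalings and filters, halved counts, a replicate block, summed copies and leaving out each library were alternatives. The test was tried on simulated counts with known changes in 200 genes drawn from all levels. It recovered 55.5% of 2-fold changes, with 7 false calls, and 43.5% of 1.5-fold changes, with 3 false calls. In the simulation, genes of the same level shared the same spread, and no shift with transcript length was put in. These rates may therefore not hold for the real counts. Levels were also divided by the length of 1 representative transcript (GENCODE lift to GRCh37). Shared sequence was counted over 100-base stretches of that transcript, and promoters came from RefSeq (GRCh38.p14). Positions of the genes in the table were not converted between builds.

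The members and lists were chosen with earlier results of these data known. Values in every library are given for members with an unadjusted p under 0.05, the largest difference of each role, the 3 highest and 3 lowest levels per kilobase and the copies that share reads, and related genes are named at an unadjusted p under 0.05, with the eIF2 alpha kinases added after their values were seen. The 2 replicates of each group were checked and did not hold the same counts (chi-square per degree of freedom 11.2 and 13.7). Results for 2 of the cell type markers are not reported here.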

Additional observations from a re-analysis of the deposited data

How the results depend on the processing

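The direction of EIF3CL and EIF3C was lower in all settings that gave a value, and EIF3CL was called in 8 of 14. With upper-quartile factors the median over the initiation factor genes was 0.043, and the medians were 0.021 for the eIF2 group, -0.046 for the cap-binding group and 0.028 for the eIF4A group; with library size only they were 0.037, 0.015, -0.052 and 0.022. Called initiation factor genes, related genes and genes in all numbered 1, 0 and 93 with library size only, 2, 2 and 437 with no filter beyond 1 count, 1, 1 and 173 with a mean normalized count above 50 (where the cap-binding median was -0.031), 0, 2 and 297 with DESeq2, 0, 1 and 111 with the legacy method off, and 1, 1 and 148 with counts halved (where the eIF2 median was 0.070), against 0, 0 and 55 as reported. Upper-quartile factors and library size only turned EIF2S3 (-0.0017 and -0.0082) and EIF3D (-0.027 and -0.034) below 0, as did the stricter filter (-0.011) and halving (-0.00083) for EIF3D. The causes were not tested.

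With the replicate number as a block, 652 genes were called, with 3 initiation factor genes (EIF3C and EIF3CL lower, EIF3G higher) and 3 related genes. The labels do not say what libraries with the same number shared beyond that number. Their deviations from the group means correlated at 0.015 over genes tested, which cannot tell whether they shared a culture or a batch.

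Leaving out each library in turn gave 137 to 1195 calls over all genes (1195 without siLOC730101 1), 0 to 4 among the initiation factor genes (EIF3CL, EIF3G, EIF3K and EIF5A without siLOC730101 1) and 0 to 3 among the related genes. The lone library left in a group was assumed to vary like the other group. The median over the initiation factor genes ranged from 0.0048 to 0.079. By role it ranged from -0.059 to 0.053 for scanning, 0.026 to 0.066 for eIF2, 0.072 to 0.19 for eIF2B, -0.0073 to 0.11 for eIF3, -0.022 to -0.0038 for cap binding, 0.019 to 0.056 for eIF4A and -0.023 to 0.15 for eIF5A and eIF6. Genes that changed sign were EIF1 (-0.093 to 0.062), EIF1AD (-0.24 to 0.041), EIF1B (-0.16 to 0.056), EIF2B3 (-0.19 to 0.058), EIF3D (-0.066 to 0.080), EIF3F (-0.012 to 0.18), EIF3H (-0.0075 to 0.096), EIF3I (-0.017 to 0.18), EIF4A1 (-0.37 to 0.058), EIF4E3 (-0.30 to 0.022), EIF4ENIF1 (-0.038 to 0.20), EIF4H (-0.12 to 0.014), EIF5 (-0.047 to 0.021) and EIF6 (-0.15 to 0.30), all on the log2 scale. Only 2 libraries per group limit these differences, and a gene at the median SE needed 1.33-fold to be called.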
